A study of Homo sapiens with 6 samples.

Results

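The hypoxia-inducible factors and their targets were followed in HT1080 cells, an established human fibrosarcoma cell line, after IFNβ treatment. The 10 genes were taken by name: HIF1A and EPAS1, which encode the oxygen-regulated subunits HIF-1α and HIF-2α, and the targets CA9, VEGFA, ADM, SLC2A1, PDK1, BNIP3, NDRG1 and EGLN3. Each symbol matched an Ensembl ID among the 62710 in the table, and 8 of the 10 passed the filter on low values and were tested. RNA was sequenced from 3 untreated libraries and 3 libraries of cells given 20 ng/mL IFNβ for 24 h. All libraries came from the same unmodified line grown in high-glucose medium, and the labels name no low-oxygen treatment. The labels name human IFNβ for these libraries, whereas the RNA sequencing methods of the paper name the mouse protein.

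HIF-1α and HIF-2α are made continuously, and in the presence of oxygen the EGLN prolyl hydroxylases mark them for capture by the VHL ubiquitin ligase and for degradation. When oxygen is low, the subunits persist, pair with ARNT and bind a short core sequence in target genes that serve glucose uptake, glycolysis, pH control, blood vessel growth and mitophagy. CA9, a carbonic anhydrase of the cell surface, is widely used as a tissue marker of hypoxia. RNA levels therefore report on the amount of message for the factors and on the output of their targets, not on the stability or activity of the proteins.

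The core sequence was searched in the RefSeq windows from 250 bases before to 50 bases after each gene start (build GRCh38.p14), as ACGTG or GCGTG on either strand. Windows were held for 8 of the members, 10 windows in all, and 7 of these 10 windows, 1 in each of 7 genes, held a core, against 48.4% of all 35116 windows in the table. EGLN3 was the member with a window and no core. The 250 bases before the start are shown for the 3 members that passed the test, CA9, SLC2A1 and EPAS1, and for PDK1 and BNIP3, which carry the core but did not pass. They lie at chr9:35673678-35673927 on the plus strand, chr1:42958869-42959118 on the minus strand, chr2:46297157-46297406 on the plus strand, chr2:172555840-172556089 on the plus strand and chr10:131981924-131982173 on the minus strand. Each is written 5′ to 3′ with the cores in capitals.
CA9: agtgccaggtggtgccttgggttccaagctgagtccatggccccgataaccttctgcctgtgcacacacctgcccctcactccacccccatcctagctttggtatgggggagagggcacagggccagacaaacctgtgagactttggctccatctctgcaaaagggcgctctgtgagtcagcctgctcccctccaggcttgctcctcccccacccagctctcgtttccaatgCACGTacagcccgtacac
SLC2A1: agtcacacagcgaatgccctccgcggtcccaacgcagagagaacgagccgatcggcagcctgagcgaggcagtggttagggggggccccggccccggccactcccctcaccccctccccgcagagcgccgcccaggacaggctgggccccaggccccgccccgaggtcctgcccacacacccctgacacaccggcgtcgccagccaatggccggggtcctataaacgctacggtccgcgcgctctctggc
EPAS1: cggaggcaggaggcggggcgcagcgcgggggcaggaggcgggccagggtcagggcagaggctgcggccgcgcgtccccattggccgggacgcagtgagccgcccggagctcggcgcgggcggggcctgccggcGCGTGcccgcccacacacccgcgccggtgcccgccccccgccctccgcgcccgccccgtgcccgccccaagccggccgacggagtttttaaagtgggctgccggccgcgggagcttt
PDK1: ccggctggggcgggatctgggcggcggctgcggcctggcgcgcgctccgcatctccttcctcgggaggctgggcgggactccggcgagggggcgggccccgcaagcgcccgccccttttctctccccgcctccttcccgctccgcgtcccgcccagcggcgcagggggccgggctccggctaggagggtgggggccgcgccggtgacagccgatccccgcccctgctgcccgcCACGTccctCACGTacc
BNIP3: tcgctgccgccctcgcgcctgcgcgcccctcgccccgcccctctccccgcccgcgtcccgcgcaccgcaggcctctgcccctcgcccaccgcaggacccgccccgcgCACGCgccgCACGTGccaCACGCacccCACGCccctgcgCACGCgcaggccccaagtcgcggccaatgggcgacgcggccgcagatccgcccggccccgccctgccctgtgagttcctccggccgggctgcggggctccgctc
The core of CA9 began 18 bases before the start, and those of PDK1 began 17 and 8 bases before the start used for the stretch shown. Another window of PDK1, further upstream, held no core. BNIP3 held 6 matches, of which those at 134 and 133 bases before the start overlap in the palindrome CACGTG. The core of SLC2A1 lay after the start, so the stretch shown has no capitals. EPAS1 held 1 core, 117 bases before its RefSeq start. All starts used for the windows are those of RefSeq, and they can differ from the limits of the GENCODE gene spans given below. The stretches shown for EPAS1 and SLC2A1 and the core of CA9 lie inside the GENCODE spans of these genes. Before the start thus means before the RefSeq start only. An interferon-stimulated response element searched as TTTC, any 2 bases and TTTC, on either strand, was in none of the 10 windows, against 3.57% of all windows. A gamma-activated site written as TTCNNNGAA was in 1 of them, an upstream window of PDK1, against 7.66%. A match is a run of letters, and whether any factor binds there was not measured.

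Levels are given as FPKM, the fragments of a gene divided by its length and by the size of its library. They can be compared between genes only as far as the lengths used are right. Because 1 fragment sets the step of each value, whole fragments could be recovered, and the libraries held between 22848104 and 32915500 fragments. The effect of IFNβ was tested with limma on log2(FPKM + 0.1), over the 20716 genes whose mean reached 0.1 FPKM. A log2 change is the IFNβ-treated minus the untreated mean on this scale. A gene passed the test at a Benjamini-Hochberg adjusted p under 0.05 and was called a differentially expressed gene (DEG) if its log2 fold change was also at least 1 in size. Pairs of libraries within a group differed by more than counting error, with a chi-square per gene of 1.78 to 3.39. Nothing in the labels says that the libraries came from separate cultures, so p-values measure the spread between these libraries. The treatment showed in IFIT1, an interferon-induced antiviral gene, which rose from 0.916 ± 0.0380 to 413 ± 3.30 FPKM (mean ± S.D., n = 3). All 6 mesenchymal markers were above 1 FPKM in every library, and no epithelial, blood or endothelial marker exceeded 0.327 FPKM. The summed level of the 3 epithelial markers was 0.0072 to 0.0163 FPKM in untreated and 0.0267 to 0.0552 FPKM in IFNβ-treated libraries, near 0 in each.

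CA9 was the only DEG among the members, and it rose while most of the others stayed within a narrow range. Of the 8 tested genes, CA9 and SLC2A1 rose and EPAS1 fell, so that 3 of 8 (37.5%) passed the test, against 32.7% of all genes tested. By direction, 15.2% of all genes rose and 17.5% fell. DEGs made up 4.22% of all genes tested, 3.49% higher and 0.739% lower. Without CA9, 2 of 7 members passed (28.6%), and the 7 log2 fold changes lay between -0.47 and 0.37 with a median of -0.08, where the median of all genes tested was 0.00017. The count depended on the test: with limma-voom on recovered fragments 7 of 8 members passed (87.5%), against 38.3% of all genes, and with quantile normalization 5 of 8 (62.5%), against 32.7%. Where the mean had to reach 1 FPKM, 4 of 7 passed (57.1%), against 53.8% of all such genes.

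**Figure D1:**
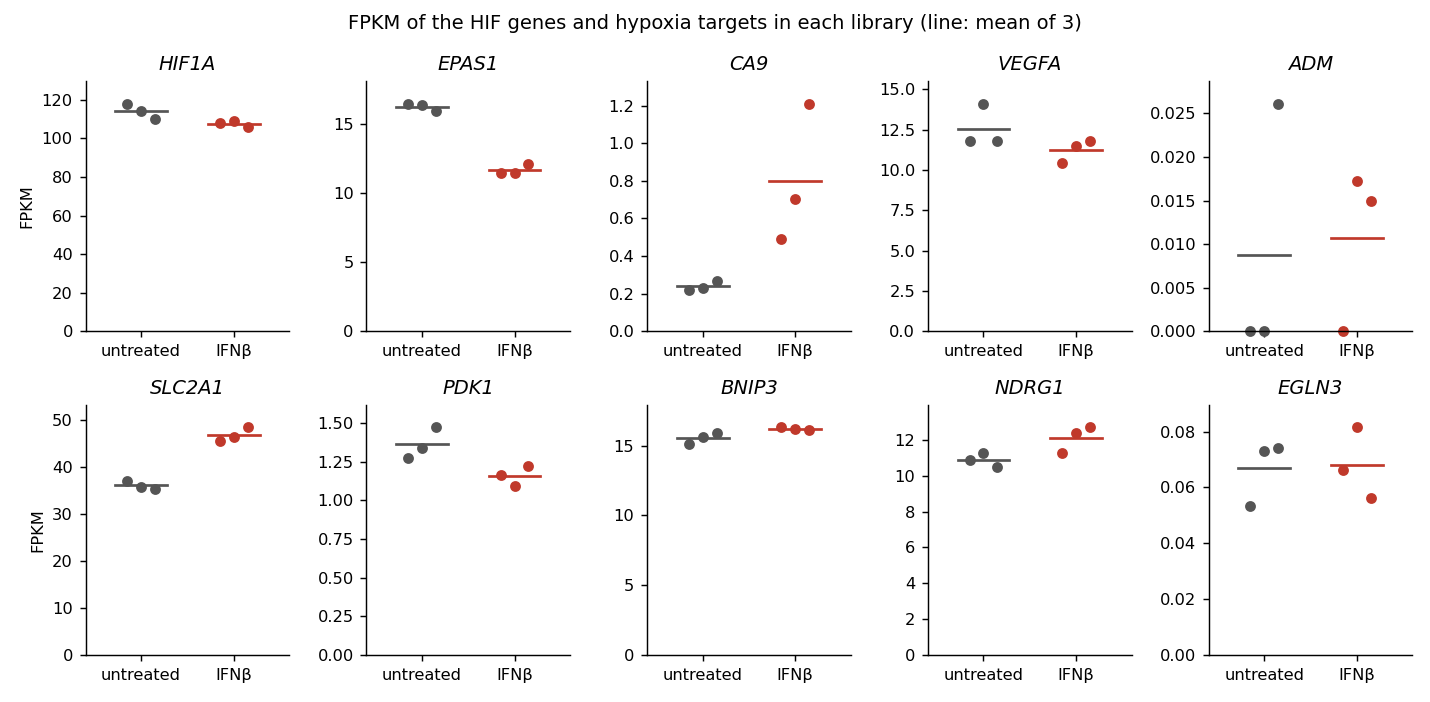
FPKM of each of the 10 genes in the 3 untreated libraries (grey) and the 3 IFNβ-treated libraries (red), 1 point per library, with the group mean as a line and a linear axis from 0 that differs between panels. CA9 and SLC2A1 lie higher and EPAS1 lower in every IFNβ-treated library, and no library exceeds 0.0261 FPKM for ADM.

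HIF1A (ENSG00000100644) was the most abundant member. It had 118, 114 and 110 FPKM in the untreated libraries and 108, 109 and 106 FPKM after IFNβ, from 13848 to 18703 fragments per library. The IFNβ-treated libraries all lay below the untreated ones, but by little. The log2 fold change was -0.08 (standard error 0.027, 95% interval -0.14 to -0.015), and the limma adjusted p of 0.065 missed the threshold. Without untreated replicate 3 the limma adjusted p was 0.032, the lowest with a single library left out, and the highest was 0.18. Groups did not overlap for 46.6% of all genes tested, with the IFNβ-treated libraries higher for 22.3% and lower for 24.3%, and for 6 of the 8 tested members.

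EPAS1 (ENSG00000116016, GRCh38 chromosome 2, 46293667 to 46386703, plus strand) fell. It had 16.5, 16.4 and 16.0 FPKM in untreated cells and 11.5, 11.5 and 12.1 FPKM after IFNβ, a ratio of means of 0.721. Replicates of a group lay close together and the groups were far apart. The log2 fold change was -0.47 (standard error 0.03, 95% interval -0.54 to -0.40, limma adjusted p = 8.5e-05). Under 16 alternative settings it lay between -0.49 and -0.44 and passed the test in each. The fall was larger in size than 75.7% of the changes of all genes tested, without reaching the DEG threshold.

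The HIF1A locus on chromosome 14 (GRCh38, 61695513 to 61748259, plus strand) overlaps HIF1A-AS1, a long non-coding RNA gene on the other strand that shares 117 of the 5151 exon bases of HIF1A. HIF1A-AS1 rose from 0.352 ± 0.134 to 1.06 ± 0.0819 FPKM (mean ± S.D., n = 3), or a log2 change of 1.39 (standard error 0.22, limma adjusted p = 0.0039). Fragments of this RNA numbered 12, 8 and 10 in untreated cells and 36, 28 and 29 after IFNβ. The antisense RNA was thus a DEG where HIF1A itself missed the threshold. Whether the counting used strand is not given in the sources used here, and without strand the shared bases cannot be assigned. HIF1A-AS3 (ENSG00000258667), in the same locus with no exon bases shared, had a log2 change of -0.092 (limma adjusted p = 0.76).

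CA9, which hydrates carbon dioxide outside the cell and so helps to export acid, was low in HT1080 cells. It had 0.219, 0.232 and 0.266 FPKM in the untreated libraries and 0.488, 0.701 and 1.21 FPKM after IFNβ. These rest on 8, 11 and 14 fragments against 24, 28 and 56. Every IFNβ-treated library lay above every untreated one, and IFNβ replicate 3 lay well above the other two. The means were 0.239 ± 0.0243 and 0.801 ± 0.373 FPKM (mean ± S.D., n = 3), a ratio of 3.35. The log2 fold change was 1.33 (standard error 0.30, 95% interval 0.60 to 2.07, limma adjusted p = 0.017), larger in size than 95.7% of the changes of all genes tested.

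From the summed fragments alone, 33 against 108, CA9 was 3.30 times as frequent per total fragments after IFNβ, with an exact 95% interval of 2.22 to 5.04 that covers counting error only. Each IFNβ-treated library was also set against the 3 untreated ones in this way. The ratio was 2.02 (1.14 to 3.52) in replicate 1, 2.90 (1.69 to 4.95) in replicate 2 and 5.02 (3.21 to 7.97) in replicate 3. All 3 intervals lay above 1, but they share the same 33 untreated fragments and are not 3 separate results. The treated libraries differed among themselves by more than the untreated ones did.

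**Figure D2:**
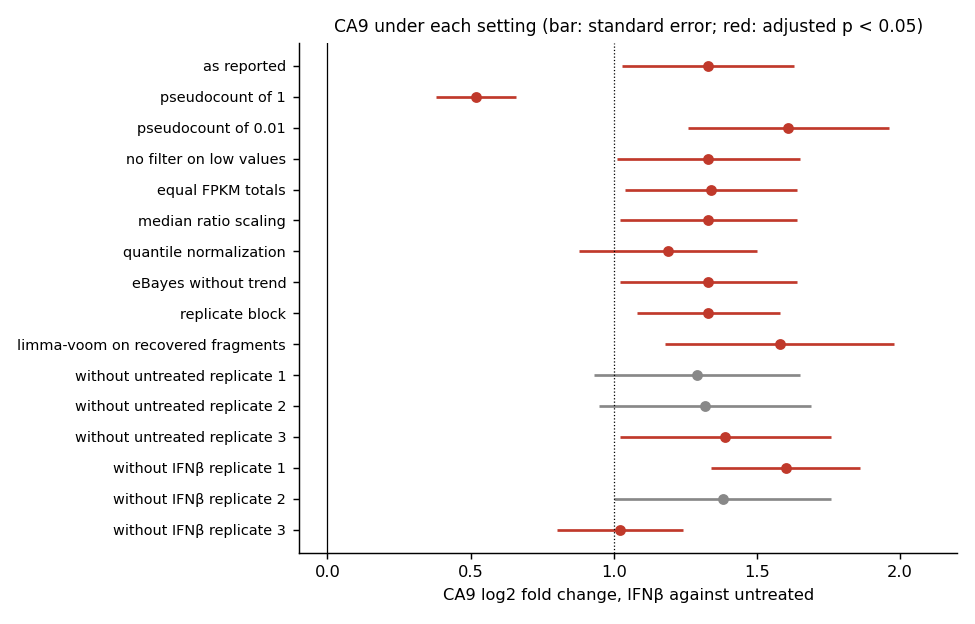
CA9 log2 fold change (x axis) as reported and under each of 15 alternative settings (y axis), with the standard error as a bar, in red where the adjusted p was under 0.05 and with the DEG threshold of 1 as a dotted line. Every value is above 0, from 0.52 with a pseudocount of 1 to 1.61 with a pseudocount of 0.01, and 3 settings that leave out a library are grey.

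The size and the call of the CA9 rise depended on the settings. With a pseudocount of 1 the log2 fold change was 0.52, and without untreated replicate 1, untreated replicate 2 or IFNβ replicate 2 the limma adjusted p was 0.054, 0.054 and 0.055. Without IFNβ replicate 3, the highest library, the log2 change was 1.02 with an adjusted p of 0.027. CA9 (ENSG00000107159) lies on chromosome 9 (GRCh38, 35673856 to 35681159, plus strand), and 643 of its 1670 exon bases are shared with ARHGEF39 on the other strand. ARHGEF39 had 2.09 ± 0.0819 FPKM in untreated cells and 1.83 ± 0.0857 FPKM after IFNβ (mean ± S.D., n = 3), or a log2 change of -0.18 (limma adjusted p = 0.081). The part of shared fragments in the CA9 values was not tested.

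To ask whether CA9 moved with the others, its level was set against each other member library by library, as the difference of log2(FPKM + 0.1). ADM was left out because it had at most 2 fragments in any library, which leaves 8 pairs. The change of CA9 exceeded that of EPAS1 by 1.80 (standard error 0.32), of PDK1 by 1.54 (0.32), of VEGFA by 1.49 (0.31) and of HIF1A by 1.41 (0.36). It exceeded that of EGLN3 by 1.32 (0.38), of BNIP3 by 1.27 (0.34), of NDRG1 by 1.18 (0.30) and of SLC2A1 by 0.96 (0.32). On this scale, the differences in the IFNβ-treated libraries lay above those in the untreated ones in all 8 pairs. The pairs share the same CA9 values, so they are not 8 separate results. The exact two-sided permutation test gave p = 0.10 for each, also after adjustment over the 8 pairs, which is the smallest p that 3 libraries against 3 allow. With a pseudocount of 1 the gap to SLC2A1 was 0.15, the groups overlapped and the exact permutation p was 0.50.

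SLC2A1 (ENSG00000117394, GRCh38 chromosome 1, 42925375 to 42959176, minus strand), the glucose transporter GLUT1, was the other member that rose. It had 37.1, 35.9 and 35.4 FPKM in untreated cells and 45.7, 46.4 and 48.5 FPKM after IFNβ, from 5611 to 9304 fragments per library. The groups were well separated. The log2 fold change was 0.37 (standard error 0.03, 95% interval 0.30 to 0.45, limma adjusted p = 0.00023), and it stayed between 0.35 and 0.39 and passed the test under 16 alternative settings. On the FPKM scale the gain of SLC2A1 was 1.30 times, whereas that of CA9 was 3.35 times from a far lower level.

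The remaining targets did not pass. VEGFA, the growth factor of blood vessels, had 11.8, 14.1 and 11.8 FPKM in untreated cells and 10.4, 11.5 and 11.8 FPKM after IFNβ, and the groups overlapped (log2 fold change -0.16, 95% interval -0.37 to 0.048, limma adjusted p = 0.22). PDK1, the kinase that shuts off pyruvate dehydrogenase, had 1.27, 1.34 and 1.47 FPKM against 1.16, 1.09 and 1.22 FPKM. The treated libraries lay below the untreated ones, with a log2 change of -0.21 (95% interval -0.43 to 0.0026, limma adjusted p = 0.12).

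BNIP3, a receptor for the removal of mitochondria, had the smallest log2 fold change of the 8 tested members, with 15.1, 15.6 and 15.9 FPKM in untreated cells and 16.3, 16.2 and 16.1 FPKM after IFNβ. All treated libraries lay above the untreated ones. The log2 fold change was 0.063 (95% interval -0.0018 to 0.13, limma adjusted p = 0.13), so a change beyond 1.09-fold was outside the interval. NDRG1, a stress-responsive gene that hypoxia raises in many cells, had 10.9, 11.3 and 10.5 FPKM against 11.3, 12.4 and 12.7 FPKM. The groups of NDRG1 overlapped at 11.3 FPKM, and the log2 fold change was 0.15 (95% interval 0.023 to 0.28, limma adjusted p = 0.074). Without IFNβ replicate 1 the limma adjusted p of NDRG1 was 0.020, the lowest with a single library left out, and the highest was 0.20.

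ADM and EGLN3 were under the filter. ADM, which encodes the vasodilator peptide adrenomedullin, had 0, 0 and 2 fragments in untreated cells and 0, 1 and 1 after IFNβ. Both groups were thus at or under 3 fragments, which are worth up to 0.0565 FPKM, and no fold is given. EGLN3, the prolyl hydroxylase that is itself a hypoxia target, had 0.0535, 0.0732 and 0.0743 FPKM against 0.0662, 0.0815 and 0.0564 FPKM, from 9 to 18 fragments. In a fit with no filter its log2 fold change was 0.0086 (95% interval -0.41 to 0.42, limma adjusted p = 0.99). A change of EGLN3 within that interval was not detectable at this depth. Its level was below the added 0.1 FPKM, so the log2 scale understates its fold.

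**Figure D3:**
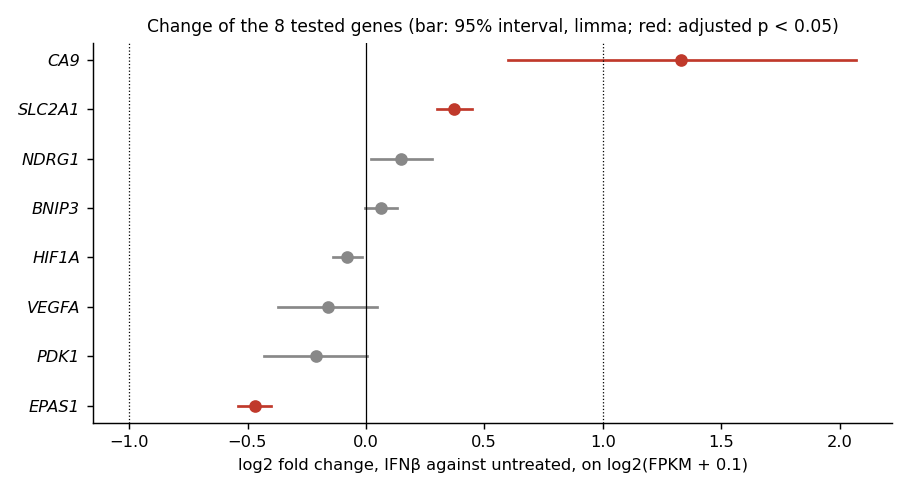
log2 fold change of the 8 tested genes after IFNβ (points) with the 95% interval from limma (bars), in red where the adjusted p was under 0.05, and dotted lines at the DEG thresholds of -1 and 1. CA9 stands at 1.33 with the widest interval, SLC2A1 at 0.37 and EPAS1 at -0.47, and the other 5 lie between -0.21 and 0.15.

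By mean level over the 6 libraries the members ran from HIF1A (111 FPKM) and SLC2A1 (41.5 FPKM) through BNIP3 (15.9), EPAS1 (14.0), VEGFA (11.9) and NDRG1 (11.5) to PDK1 (1.26), CA9 (0.520), EGLN3 (0.0675) and ADM (0.00971). In untreated cells EPAS1 lay just above BNIP3, at 16.0 to 16.5 against 15.1 to 15.9 FPKM. After IFNβ their order was the reverse, at 11.5 to 12.1 against 16.1 to 16.3 FPKM. Any order between genes rests on the gene lengths the authors used, which are not given in the sources used here. The recovered fragments of BNIP3 implied 4050 bases, against 5325 exon bases in GENCODE release 29. With the longer length the FPKM of BNIP3 would be lower in every library, which bears on its place above EPAS1 after IFNβ. Whether the order of the genes truly reversed was thus not tested. VEGFA and NDRG1 could not be ordered after IFNβ, since their libraries overlapped with each other and with those of EPAS1. CA9 was above EGLN3 and ADM in every library.

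The genes whose values lay closest to those of CA9 over the 6 libraries were not members. Likeness was the root-mean-square difference of log2(FPKM + 0.1), with each gene centred on its untreated mean, over the 14225 genes whose mean reached 0.5 FPKM. The closest was CSAG3 (0.23), a cancer-testis gene with near-identical relatives, followed by an unnamed gene (ENSG00000279154, 0.28), SNORA80E (0.29), another unnamed gene (ENSG00000289981, 0.29) and THBS1-IT1 (0.29), which lies within THBS1. CSAG3 had 2.95, 2.18 and 2.97 FPKM in untreated cells and 5.19, 7.80 and 8.34 FPKM after IFNβ. The measure includes the size of the change, and the log2 changes of these 5 genes ran from 1.17 (SNORA80E) to 1.35 (CSAG3). Few fragments underlie SNORA80E (4 to 17 per library), ENSG00000289981 (5 to 32) and THBS1-IT1 (11 to 43). Regulation shared with CA9 was not tested. Among the members SLC2A1 came closest, at 0.75, and ranked 1385, while EPAS1 ranked 12888.

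Of 7 partners and cofactors of the HIF subunits, 6 were tested, CITED2 rose and ARNT fell (33.3% passed, against 32.7% of all genes tested, median log2 change -0.062). CITED2, which competes with HIF-1α for the coactivators EP300 and CREBBP, rose from 23.7 ± 2.56 to 32.6 ± 1.93 FPKM (mean ± S.D., n = 3), or a log2 change of 0.46 (standard error 0.083, limma adjusted p = 0.0065). ARNT, the common partner of the subunits, went from 4.52 ± 0.0856 to 3.91 ± 0.159 FPKM, or a log2 change of -0.20 (limma adjusted p = 0.014). EP300 (log2 fold change 0.082), CREBBP (-0.052), BMAL1 (-0.073) and ARNT2 (-0.10) did not pass, and HIF3A was listed at 0 in every library.

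Of 11 genes of oxygen sensing and HIF degradation, 2 rose and 3 fell (45.5% passed, against 32.7% of all genes tested and 53.8% of those with a mean of at least 1 FPKM). VHL, the substrate receptor of the ligase that captures hydroxylated HIF, fell from 10.4 ± 0.189 to 8.05 ± 0.295 FPKM (mean ± S.D., n = 3), or a log2 change of -0.37 (standard error 0.035, limma adjusted p = 0.00044). ELOB (-0.27), an adaptor of the same ligase, and SIAH1 (-0.35), a ligase that acts on EGLN proteins, also fell, the latter with an adjusted p of 0.040 and a call lost when any library but IFNβ replicate 3 was left out, while RBX1 (0.26), the ring subunit of the VHL ligase, rose. P4HTM, a membrane prolyl hydroxylase, rose with a log2 change of 0.58 (limma adjusted p = 0.0031). The hydroxylases EGLN1 (0.0005) and EGLN2 (0.20) and the asparagine hydroxylase HIF1AN (-0.094) did not pass, nor did ELOC (-0.16), CUL2 (0.034) and SIAH2 (0.085).

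Glycolysis genes passed the test in both directions. Of 19 tested, 9 rose and 6 fell (78.9% passed, against 32.7% of all genes), none was a DEG, and the median log2 fold change was 0.021. All 19 had a mean above 1 FPKM, and among the 11996 genes at or above that level, tested alone, 53.8% passed and 17 of the 19 did (89.5%). SLC16A3, the lactate exporter MCT4, rose from 36.9 ± 0.113 to 49.2 ± 1.08 FPKM (mean ± S.D., n = 3), or a log2 change of 0.41 (limma adjusted p = 3.3e-05). PGAM1 (0.29), a mutase of lower glycolysis, also rose. ENO1 (-0.26), the main enolase, and PFKFB3 (-0.47), which makes the activator of phosphofructokinase, fell. Several glycolysis genes have processed pseudogenes, and how the authors assigned shared fragments is not given in the sources used here.

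Of 30 other hypoxia targets, 28 were tested, 9 rose and 4 fell (46.4% passed, against 32.7% of all genes tested), with a median log2 fold change of 0.13. Of those with a mean of at least 1 FPKM 53.8% passed, the same share as of all such genes. TXNIP and TMEM45A were DEGs. TXNIP, which binds thioredoxin and curbs glucose uptake, rose from 1.21 ± 0.217 to 7.24 ± 0.511 FPKM (mean ± S.D., n = 3), or a log2 change of 2.5 (standard error 0.13, limma adjusted p = 3.9e-05), which was larger than that of CA9. TMEM45A rose from 0.597 ± 0.0574 to 1.48 ± 0.0557 FPKM, or a log2 change of 1.18 (limma adjusted p = 0.00031). STC2 (0.49), a secreted glycoprotein, rose below the DEG threshold. The 15 that did not pass lay between -0.17 and 0.68.

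No other carbonic anhydrase passed the test. Of 14 further family members, 6 were tested (0% passed, against 32.7% of all genes tested), and CA4 was listed at 0 in every library. Only 2 of these 6 had a mean of at least 1 FPKM, and 0 of those 2 passed, against 53.8% of all such genes. So few genes, mostly low, cannot show whether CA9 stood apart from its family. CA12, the other tumour-associated enzyme of the cell surface and also a hypoxia target, had 4.63 ± 0.201 FPKM in untreated cells and 4.95 ± 0.332 FPKM after IFNβ (mean ± S.D., n = 3), or a log2 change of 0.094 (limma adjusted p = 0.30). It was more abundant than CA9 in each group. CA2 (-0.20), CA5B (-0.59), CA11 (0.65), CA13 (0.22) and CA14 (-0.38) also missed the threshold, with the lowest adjusted p, 0.054, for CA5B, which passed with quantile normalization (0.024), without the trend (0.026) and with limma-voom (0.001). Among 8 genes of pH and bicarbonate transport, 3 rose and 1 fell (50% passed, against 32.7% of all genes tested). Of the 7 with a mean of at least 1 FPKM, 4 passed (57.1%), against 53.8% of all such genes. SLC16A3 and its chaperone BSG (0.17) were among those that rose, and the bicarbonate transporter SLC4A7 fell from 14.0 ± 0.310 to 9.73 ± 0.207 FPKM, or a log2 change of -0.52 (limma adjusted p = 4.8e-05).

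In the VEGF family, VEGFC rose where VEGFA did not pass. VEGFC, the growth factor of lymphatic vessels, went from 27.7 ± 0.946 to 60.3 ± 0.942 FPKM (mean ± S.D., n = 3), or a log2 change of 1.12 (standard error 0.029, limma adjusted p = 1.5e-06), and was the DEG among the 5 genes tested of 9. NRP2 (-0.22) and PGF (-0.11) fell, and NRP1 (-0.078, limma adjusted p = 0.11) did not pass. Of the 5 tested, 60% passed, against 32.7% of all genes tested. All 5 had a mean of at least 1 FPKM, where 53.8% of all genes passed. PGF lost its call when any library but untreated replicate 1 was left out. The receptors of adrenomedullin were under the filter, and ADM2, a related peptide, rose from 0.363 ± 0.0556 to 0.594 ± 0.0704 FPKM, or a log2 change of 0.59 (limma adjusted p = 0.036), a call lost when any library but untreated replicate 2 was left out.

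Paralogs of the members were tested in 13 of 17 cases, of which 3 rose and 3 fell (46.2% passed, against 32.7% of all genes tested). Of the 8 with a mean of at least 1 FPKM, 4 passed (50%), against 53.8% of all such genes. SLC2A12, a glucose transporter related to SLC2A1, rose from 0.279 ± 0.0940 to 2.31 ± 0.0807 FPKM (mean ± S.D., n = 3), or a log2 change of 2.70 (standard error 0.18, limma adjusted p = 0.00011), and was the DEG of this list. SLC2A3 rose by 0.25. PDK3 fell, with a log2 change of -0.78 (limma adjusted p = 0.0039), and NDRG3 fell, with one of -0.27. Over all these lists, with each gene counted once, 91 of 114 genes were tested, 27 rose and 20 fell. Thus 51.6% passed, against 32.7% of all genes tested, and 4 of them (4.40%) were DEGs, against 4.22%. Where the mean had to reach 1 FPKM, 48 of 78 passed (61.5%), against 53.8%. Their median log2 fold change was 0.034.

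**Figure D4:**
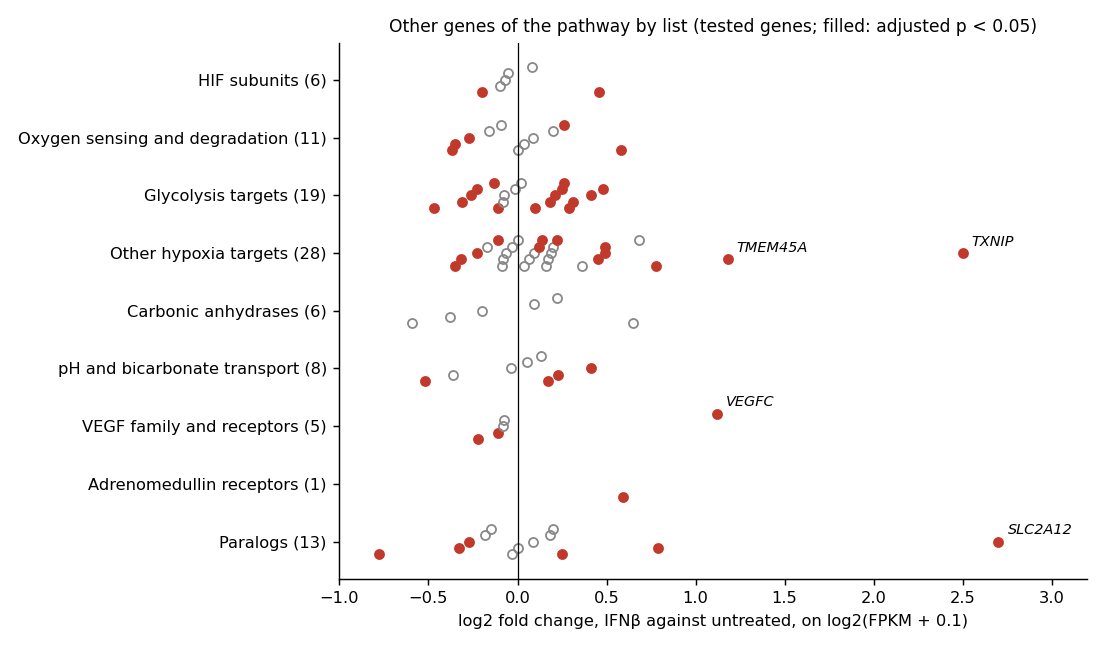
log2 fold change (x axis) of the tested genes of each list of the HIF pathway (y axis, number tested in brackets), filled in red where the adjusted p was under 0.05 and with the DEGs named. Points lie on both sides of 0 in every list except the adrenomedullin receptors, where ADM2 alone was tested, and the DEGs are TXNIP, TMEM45A, VEGFC and SLC2A12.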

How the data were processed

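The 6 libraries were 3 of untreated and 3 of IFNβ-treated HT1080 cells. The authors enriched mRNA, sequenced it on an Illumina NovaSeq instrument and deposited FPKM for each Ensembl gene and library. The submitters' processing notes name fastp, HISAT2, StringTie and GRCh38, and the paper names DESeq2 for the authors' own comparison. The annotation and the strandedness are not given in the sources used here.

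Gene IDs were paired with symbols through a table of gene names, and locations and exon overlaps were taken from GENCODE release 29, which lacks 4436 IDs of the table. Whole fragments were recovered from the FPKM steps for all but 1 of the 35303 genes above 0 (tolerance 0.01 for GENCODE lengths, otherwise the smallest whole numbers, which can be too small by a common factor) and added up to 99.73% of each library's total. Intervals from fragments cover counting error only.

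limma 3.58.1 (R 4.3.3), with lmFit and eBayes with trend and no covariate, was run on log2(FPKM + 0.1) after leaving out genes whose mean was under 0.1 FPKM. A fold on this scale understates the change of low genes. The code was tested on simulated data. Exact permutation tests, motif searches and figures used Python 3.11.15, scipy 1.17.1 and matplotlib 3.10.9.

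The members and lists were chosen with earlier results of these data known. Named are all members, the genes overlapping them, list genes that were DEGs, the 4 with the lowest adjusted p in each list, all tested genes of the HIF subunit, oxygen sensing and carbonic anhydrase lists, and the 5 genes most like CA9, except for some genes that are not reported here. Alternatives were other pseudocounts, filters, scalings and thresholds, eBayes without trend, the replicate block, each library left out in turn with the same genes tested, and limma-voom on recovered fragments. The ratio of CA9 fragments, and the alternatives for single genes other than members and for single lists, were chosen after seeing the data.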

Additional observations from a re-analysis of the deposited data

How the results depend on the processing

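The changes of the tested members and the gaps between CA9 and other members kept their direction under every alternative that gave them a value. The 26 other named genes that passed the test kept their direction too, and SIAH1, PGF and ADM2 lost the call under some alternatives, the replicate block among them. Of the 19 other named genes that did not pass, EGLN1 (0.0005) was -0.03 with quantile normalization and -0.038 to 0.051 with single libraries left out, and HIF1A-AS3 was -0.19 to 0.015 with single libraries left out. The number of members that passed the test was 3, against 5 (2 higher, 3 lower) with quantile normalization and 7 (3 higher, 4 lower) with limma-voom on recovered fragments, which also called HIF1A, VEGFA, PDK1 and NDRG1 (7939 of all genes, 38.3%). With single libraries left out it was 2 to 4. HIF1A and NDRG1 also passed where the mean had to reach 1 FPKM (adjusted p = 0.043 and 0.047). The number of DEGs among the members, 1, became 0 with an adjusted p under 0.01, with a pseudocount of 1 and where the mean had to reach 1 FPKM, which removes CA9, and was 0 to 1 with single libraries left out. The CA9 log2 change was then 1.02 to 1.6, with adjusted p-values from 0.013 to 0.055. Of all genes, 4341 passed at an adjusted p under 0.01 against 6778, and 5503 to 5980 with single libraries left out. The scaling that shifted all genes most, quantile normalization, put their median at -0.06.

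With the replicate block CA9 kept its log2 fold change of 1.33 (adjusted p = 0.022), 3 members passed, and 6069 of all genes passed. The labels do not say that equal numbers mark a shared culture. Deviations from the group means correlated across 11996 genes by 0.053, -0.018 and 0.12 between libraries of the same number. Between libraries of different numbers the correlations were -0.15 to 0.10. With 3 libraries per group these values cannot show whether any libraries shared a culture. CA9 rests on 8 to 56 fragments per library and ADM on at most 2, which limits what can be said of either.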
